A study of Mus musculus with 6 samples.

Results

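The 9 genes described here are 8 CC chemokines (*Ccl2*, *Ccl3*, *Ccl4*, *Ccl6*, *Ccl7*, *Ccl8*, *Ccl9* and *Ccl12*) and 1 CC chemokine receptor, *Ccr1*. They were picked by name from the table of the whole series, where they make up 9 of 18089 genes, and all 9 passed the filter on low counts that left 14395 genes to test. RNA was sequenced from the ischemic gastrocnemius muscle of 3 wild-type (WT) and 3 GPR174-knockout (*Gpr174-/Y*) mice, all C57BL/6, 7 days after hindlimb ischemia (HLI), a model in which the femoral artery is ligated. The methods describe young adult males with WT littermates as controls, and a disruption of the X-linked receptor gene *Gpr174* that is not limited to any cell type. RNA came from whole muscle, so fewer cells of a type and less RNA per cell cannot be told apart. Nothing in the labels says more about how the samples within a group were obtained, and p-values measure the spread between these samples only.

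CC chemokines are small secreted proteins that draw leukocytes along a gradient by binding G protein-coupled receptors on their surface. CCL2, CCL7 and CCL12 act mainly through CCR2, which brings inflammatory monocytes out of the bone marrow and into injured tissue. CCL3 binds CCR1 among others, and CCL6 and CCL9 are rodent chemokines that bind CCR1. In injured muscle the recruited monocytes become macrophages that clear dead fibres and later accompany their regeneration, and in ischemic limbs they take part in the growth of collateral arteries.

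Apart from *Ccr1*, on chromosome 9, the members lie on chromosome 11 in a pair of neighbouring gene clusters. In RefSeq the first cluster runs in the order *Ccl2*, *Ccl7*, *Ccl11*, *Ccl12*, *Ccl8* and *Ccl1*, and the second in the order *Ccl5*, *Ccl9*, *Ccl6*, *Ccl3* and *Ccl4*, counting protein-coding genes. Promoter sequences of 6 members were found in the RefSeq table for GRCm38.p6 (*Ccl3*, *Ccl6*, *Ccl8*, *Ccl9*, *Ccl12* and *Ccr1*). The 250 bases before the transcription start are printed 5′ to 3′ on the gene's strand for 4 of them: *Ccl12* and *Ccl8*, which are neighbours on the chromosome and whose ratio differed least between the groups among 10 ratios compared, and *Ccl9* and *Ccr1*, which were higher in *Gpr174-/Y* muscle. The regions are chr11:82101595-82101844 on the + strand for *Ccl12*, chr11:82114935-82115184 on the + strand for *Ccl8*, chr11:83578637-83578886 on the - strand for *Ccl9* and chr9:123968693-123968942 on the - strand for *Ccr1*. Capitals mark matches to TATAAA on the gene's strand, to the AP-1 motif TGANTCA and to the NF-kappaB consensus, the latter 2 on either strand.
Ccl12: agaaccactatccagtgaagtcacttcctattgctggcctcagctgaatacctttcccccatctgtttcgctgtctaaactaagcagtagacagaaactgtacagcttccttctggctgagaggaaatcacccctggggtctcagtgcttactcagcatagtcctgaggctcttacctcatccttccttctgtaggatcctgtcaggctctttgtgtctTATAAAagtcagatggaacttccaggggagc
Ccl8: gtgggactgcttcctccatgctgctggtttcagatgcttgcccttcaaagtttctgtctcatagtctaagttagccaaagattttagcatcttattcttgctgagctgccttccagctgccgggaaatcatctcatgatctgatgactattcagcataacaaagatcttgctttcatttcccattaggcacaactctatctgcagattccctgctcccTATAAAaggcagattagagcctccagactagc
Ccl9: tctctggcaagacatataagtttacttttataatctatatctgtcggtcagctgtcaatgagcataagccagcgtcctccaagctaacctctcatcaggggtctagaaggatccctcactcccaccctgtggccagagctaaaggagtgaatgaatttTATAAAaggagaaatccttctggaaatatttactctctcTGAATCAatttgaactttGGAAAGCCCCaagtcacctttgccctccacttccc
Ccr1: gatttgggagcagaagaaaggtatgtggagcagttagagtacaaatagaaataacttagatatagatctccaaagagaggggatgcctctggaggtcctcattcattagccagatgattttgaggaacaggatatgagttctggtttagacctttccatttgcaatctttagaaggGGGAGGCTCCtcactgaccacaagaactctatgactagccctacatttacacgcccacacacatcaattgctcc
*Ccl12* and *Ccl8* each held TATAAA, starting at position -31 and -32 from the transcription start. That motif was present at any place in 7.59% of 32851 promoters of this length, and between -40 and -20 in 1.93% of those on the + strand. *Ccl9* held an NF-kappaB match at -35 (7.25% of all promoters), an AP-1 match at -53 (6.75%) and TATAAA at -92, and *Ccr1* an NF-kappaB match at -74. The windows of *Ccl3* and *Ccl6* held none of the 3 motifs. These matches describe letters, not binding.

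The 6 libraries held between 18417107 and 19394505 counts, and each member had at least 21 counts in each of them. Counts of *Gpr174* itself were 8, 2 and 5 across WT replicates 1, 2 and 3, against 1, 0 and 0 across *Gpr174-/Y* replicates 1, 2 and 3, in the direction of the labels (adjusted p = 0.0176 by edgeR's quasi-likelihood F-test without the filter, which had removed the gene). Levels are given as CPM, counts scaled to library size with TMM factors that align the bulk of the genes between libraries. The libraries were unequal within groups. For 71.7% of the genes tested WT replicate 2 lay between WT replicates 1 and 3. The *Gpr174-/Y* group had the same order, with replicate 2 between the others for 64.1% of the genes and 7 of 9 members. The cause of this order in both groups was not tested. The WT libraries spread more widely than the *Gpr174-/Y* libraries for 69.0% of the genes. The members showed this more sharply than most genes. WT replicate 1 was the lowest and WT replicate 3 the highest WT library for 9 of 9 members, against 35.9% of all genes tested. The median SD of log2 CPM over the members was 0.59 in WT and 0.12 in *Gpr174-/Y* muscle, against 0.13 and 0.07 over all genes. No batch or date is given for these libraries.

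The first comparison asked how the members differed between *Gpr174-/Y* and WT muscle 7 days after HLI. *Ccl2*, *Ccl4*, *Ccl7*, *Ccl9* and *Ccr1* were higher in *Gpr174-/Y* muscle, and *Ccl3*, *Ccl6*, *Ccl8* and *Ccl12* did not pass the test. These 5 of 9 members had an adjusted p under 0.05 in edgeR's quasi-likelihood test, which called 27% of all genes tested higher and 27.6% lower. No member was called lower (0 of 9). With the study's further threshold, a fold change over 2, 4 of 9 members passed (*Ccl2*, *Ccl7*, *Ccl9* and *Ccr1*), against 3.45% of all genes. The same 5 members were those whose libraries did not overlap between the groups, which held, with the *Gpr174-/Y* group higher, for 33.1% of all genes. The median log2 fold change of the members was 0.68, and that of all genes 0.0037. With total counts as the scale 6 of 9 members were called higher, but so were 50.7% of all genes, and relative to macrophage identity genes 3 were called higher and 2 lower (1.39% and 81.8% of all genes). Without WT replicate 3, the WT library nearest to the *Gpr174-/Y* level, 8 of 9 members were called higher (31.7% of all genes), and 3 were without WT replicate 2 (18.2% of all genes), without *Gpr174-/Y* replicate 1 (21.3%) or without *Gpr174-/Y* replicate 2 (18.4%).

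**Figure D1:**
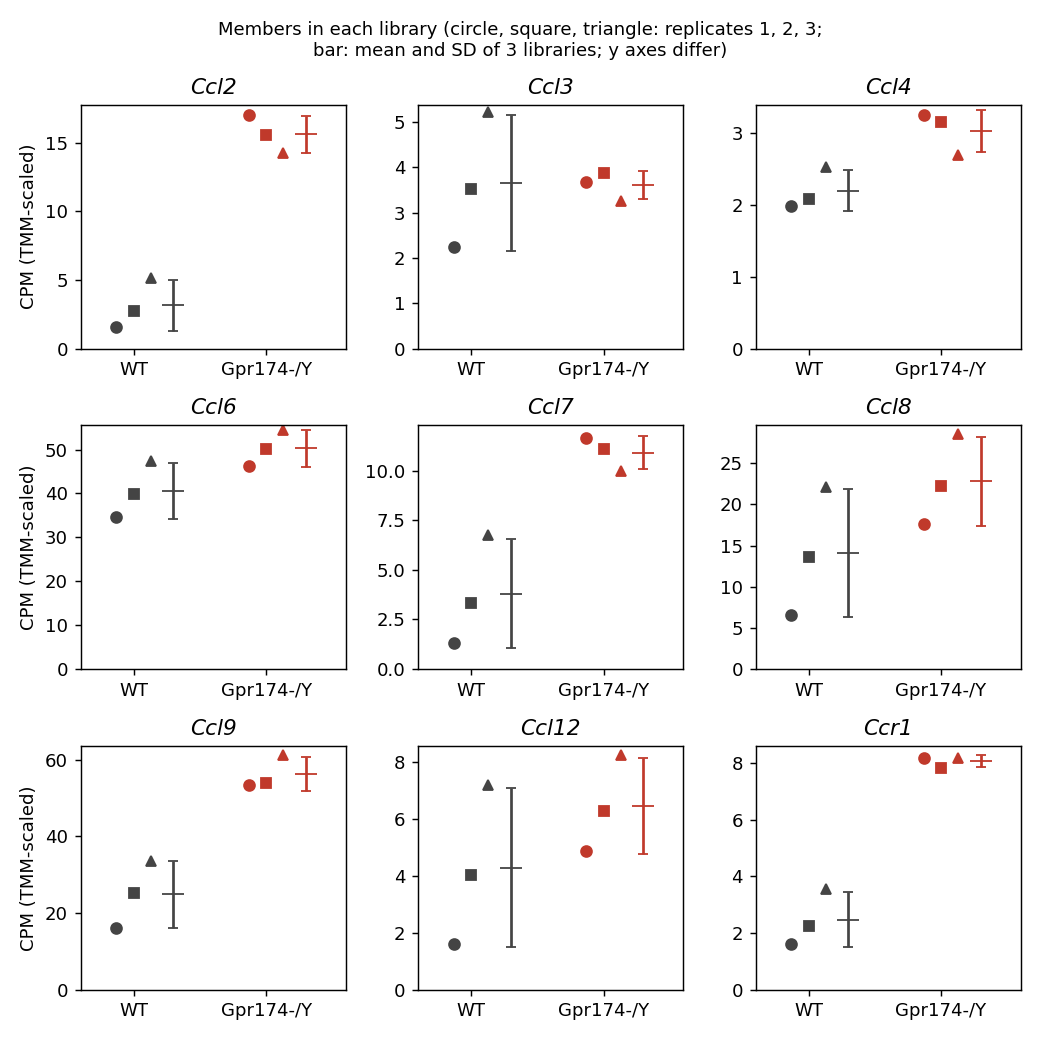
CPM (TMM-scaled) of the 9 members in each library, with WT in grey, *Gpr174-/Y* in red and bars for the mean and SD of 3 libraries. The groups do not overlap for *Ccl2*, *Ccl4*, *Ccl7*, *Ccl9* and *Ccr1*, and in all 9 panels WT replicate 1 (circle) is the lowest WT library and WT replicate 3 (triangle) the highest.

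*Ccl2*, the main ligand of CCR2 and the best known monocyte attractant, differed most among the members. Its CPM in replicates 1, 2 and 3, the order in which the libraries of a group are always given, was 1.56, 2.74 and 5.17 for WT and 17.0, 15.6 and 14.3 for *Gpr174-/Y* muscle. Every *Gpr174-/Y* library was thus well above the highest WT library, and the WT libraries themselves spanned 3.32-fold. The means were 3.155 ± 1.84 and 15.6 ± 1.365 CPM (SD, n = 3 each), a 4.88-fold difference (log2 fold change 2.29, SE 0.32, 95% confidence interval 1.52 to 3.05, adjusted p = 0.0019, edgeR's quasi-likelihood test). Leaving out each library gave log2 fold changes of 1.98 to 2.86. Replicates 1 and 3 of each group alone, with which no gene of the whole table was called (0, against 5026 at an unadjusted p under 0.05), gave 2.2 and an adjusted p of 0.0626.

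*Ccl7*, which attracts monocytes through CCR2 and further receptors and is the neighbour of *Ccl2*, had 1.31, 3.33 and 6.74 CPM in the WT and 11.7, 11.1 and 10 CPM in the *Gpr174-/Y* libraries. The *Gpr174-/Y* libraries were close to each other and above all WT libraries, whose values differed by 5.16-fold, the widest WT range of any member. Its level was 2.83-fold higher in *Gpr174-/Y* muscle (log2 fold change 1.5, SE 0.43, adjusted p = 0.02205, edgeR's quasi-likelihood test). The call was lost without WT replicate 2 or without any of the *Gpr174-/Y* replicates, where the adjusted p lay between 0.0563 and 0.0824, while the log2 fold change ranged from 1.11 without WT replicate 1 to 2.23 without WT replicate 3.

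*Ccl12*, the rodent CCR2 ligand most like CCL2, and *Ccl8*, a ligand of several CC receptors, did not pass the test although both lie in the cluster of *Ccl2*. *Ccl12* had 1.62, 4.05 and 7.19 CPM in the WT libraries and 4.87, 6.26 and 8.23 CPM in the *Gpr174-/Y* libraries. Its groups overlapped, with WT replicate 3 above *Gpr174-/Y* replicates 1 and 2, and the log2 fold change was 0.58 (SE 0.45, adjusted p = 0.310, edgeR's quasi-likelihood test). *Ccl8* had 6.60, 13.6 and 22.1 CPM in WT and 17.7, 22.2 and 28.5 CPM in *Gpr174-/Y* muscle. Here WT replicate 3 was above *Gpr174-/Y* replicate 1, and the log2 fold change was 0.68 (SE 0.39, adjusted p = 0.175, same test). The 95% confidence intervals, -0.49 to 1.64 for *Ccl12* and -0.24 to 1.6 for *Ccl8*, included both no difference and an increase over 2-fold. Both were called without WT replicate 3, their highest WT library, with a log2 fold change of 1.19 (adjusted p = 0.0421) for *Ccl12* and 1.18 (adjusted p = 0.0337) for *Ccl8*. Of 20 alternative settings 1 called *Ccl12* and 2 called *Ccl8*. With a library left out the adjusted p reached 0.600 for *Ccl12* and 0.406 for *Ccl8*, by the same test.

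Between *Ccl7* and *Ccl12* in the same cluster lies *Ccl11*, the eosinophil attractant eotaxin, which is no member. It moved the other way, with 19.0, 16.5 and 13.8 CPM in WT and 8.79, 9.0 and 8.0 CPM in *Gpr174-/Y* muscle. All WT libraries were above all *Gpr174-/Y* libraries, and the log2 fold change was -0.93 (SE 0.13, adjusted p = 0.00173, edgeR's quasi-likelihood test). The 4 eosinophil markers in the table (*Siglecf*, *Ccr3*, *Prg2* and *Il5ra*) were removed by the filter on low counts. Without the filter, where 22.2% of all genes were called higher, *Siglecf* and *Ccr3* were called higher from few counts. *Siglecf* had 2, 3 and 2 counts in WT and 8, 9 and 8 in *Gpr174-/Y* muscle (log2 fold change 1.47, adjusted p = 0.0214, same test). *Ccr3* had 1, 3 and 4 against 14, 10 and 6 (1.55, adjusted p = 0.047). *Prg2* (-0.31) and *Il5ra* (-0.89) were not called.

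*Ccl9*, a CCR1 ligand made by macrophages and other myeloid cells, rose more than 2-fold. It had 16.1, 25.2 and 33.55 CPM in the WT libraries and 53.5, 53.9 and 61.4 CPM in the *Gpr174-/Y* libraries. The lowest *Gpr174-/Y* library lay well above WT replicate 3, and the difference was 2.25-fold (log2 fold change 1.17, SE 0.23, adjusted p = 0.00593, edgeR's quasi-likelihood test). It was called with each library left out in turn (log2 fold change 0.94 to 1.45). A share of 1.97% of the 50-base words of its transcripts in the GENCODE annotation was also found in transcripts of other genes, and 0% for the other members.

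*Ccl6*, its neighbour on the chromosome and likewise a ligand of CCR1, did not pass the test. Its CPM was 34.7, 39.8 and 47.3 in WT and 46.3, 50.01 and 54.5 in *Gpr174-/Y* muscle. Only the highest WT and the lowest *Gpr174-/Y* library overlapped, and the libraries of a group differed little, by at most 1.36-fold in WT. The log2 fold change was 0.31 (SE 0.12, 95% confidence interval 0.03 to 0.59, adjusted p = 0.0638, edgeR's quasi-likelihood test). Without WT replicate 3 it was 0.44 (adjusted p = 0.00318), and on the scale of total counts 0.58 (adjusted p = 0.0129). Of 20 alternative settings 7 called *Ccl6*, and 1 of the 6 that left out a library.

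*Ccl3* and *Ccl4*, the macrophage inflammatory proteins 1 alpha and 1 beta, are neighbours that many activated leukocytes make together. *Ccl3* had 2.24, 3.51 and 5.23 CPM in WT and 3.68, 3.86 and 3.26 CPM in *Gpr174-/Y* muscle. The *Gpr174-/Y* libraries lay inside the WT range, and the log2 fold change was -0.03 (SE 0.28, adjusted p = 0.924, edgeR's quasi-likelihood test). Its sign changed with the scaling (0.23 with total counts), and the 95% confidence interval of -0.69 to 0.625 leaves room for a change of either sign.

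*Ccl4* had 1.99, 2.08 and 2.53 CPM in WT and 3.25, 3.16 and 2.70 CPM in *Gpr174-/Y* muscle. The groups did not overlap, but *Gpr174-/Y* replicate 3 was close to WT replicate 3. The counts were summed over 2 RefSeq transcripts, and only 1 of them kept the groups apart. The curated transcript overlapped, with 20.8, 27.5 and 37.5 estimated counts in WT and 49.3, 39.5 and 23.7 in *Gpr174-/Y* muscle. The predicted transcript did not, with 11.2, 7.48 and 7.48 in WT and 18.7, 27.9 and 34.5 in *Gpr174-/Y* muscle. The difference was 1.37-fold (log2 fold change 0.46, SE 0.15, adjusted p = 0.0355, edgeR's quasi-likelihood test). This call was the least stable of the 5: 11 of 20 alternative settings kept an adjusted p under 0.05, and leaving out WT replicate 1, WT replicate 2, *Gpr174-/Y* replicate 1 or *Gpr174-/Y* replicate 2 raised it to between 0.0866 and 0.120. The estimated counts of both genes were not whole in *Gpr174-/Y* replicate 2 (81.53 for *Ccl3* and 67.46 for *Ccl4*), with a sum of 148.99. Nor were they in *Gpr174-/Y* replicate 3 (69.78 and 58.22), with a sum of 128. In the GENCODE annotation the transcripts of the pair shared no 50-base word (0). The counts were estimated on RefSeq transcripts, whose shared words were not counted, and the cause was not tested.

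*Ccr1*, the receptor that monocytes, macrophages and neutrophils carry for CCL3, CCL6 and CCL9 among others, had the most even values of all members within the *Gpr174-/Y* group. Its CPM was 8.17, 7.82 and 8.19 in the *Gpr174-/Y* and 1.62, 2.26 and 3.54 in the WT libraries. The *Gpr174-/Y* libraries differed by 1.05-fold and were all well above the highest WT library. The means were 2.47 ± 0.98 and 8.06 ± 0.21 CPM (SD, n = 3 each), a 3.22-fold difference (log2 fold change 1.69, SE 0.23, adjusted p = 0.00172, edgeR's quasi-likelihood test). Leaving out each library gave log2 fold changes of 1.47 to 2.05. With replicates 1 and 3 of each group alone the adjusted p was 0.0582.

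**Figure D2:**
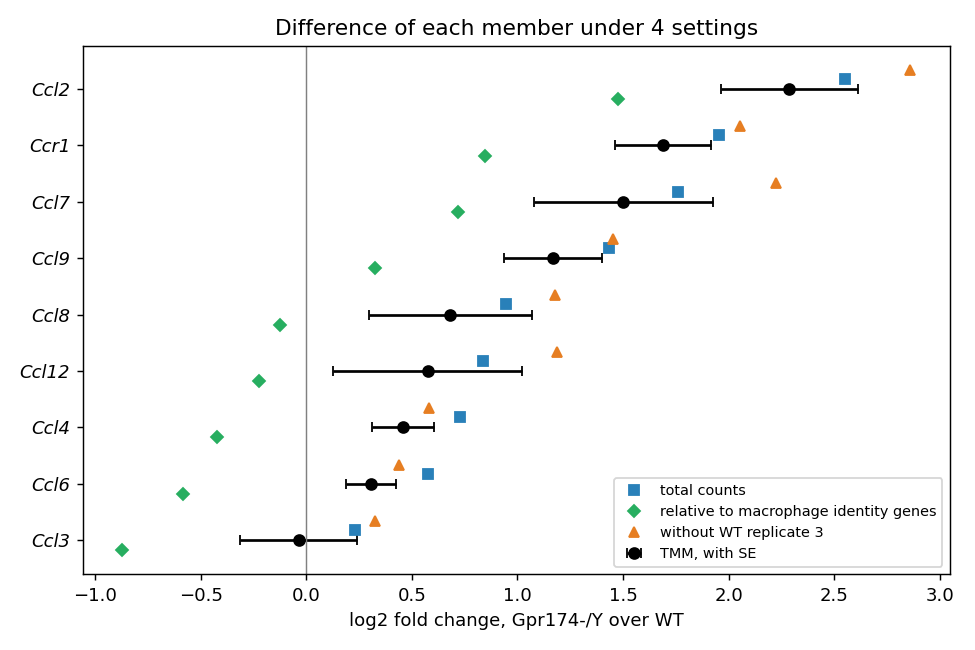
Log2 fold change (*Gpr174-/Y* over WT) of each member with TMM scaling (black, bars for the SE), with total counts (blue), relative to 16 macrophage identity genes (green) and without WT replicate 3 (orange). The order of the members is nearly the same in each setting, from *Ccl2* (2.29 with TMM scaling) to *Ccl3* (-0.03), while the green values lie lower and are below 0 for 5 members. The median of all genes tested is -0.91 on the green scale.

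Levels were compared between genes in TPM, which is scaled for transcript length. In WT muscle *Ccl8* (53.2 ± 31.6 TPM, SD, n = 3) and *Ccl6* (50.3 ± 10.4 TPM) were the most abundant members, and *Ccr1* (1.54 ± 0.68 TPM) the least. Between them lay *Ccl12* at 15.4, *Ccl9* at 14.6, *Ccl7* at 8.83, *Ccl3* at 8.56, *Ccl2* at 7.26 and *Ccl4* at 5.80 TPM. In this order only *Ccl6* and *Ccl12*, and *Ccl4* and *Ccr1*, were neighbours whose 3 WT libraries did not overlap. In *Gpr174-/Y* muscle *Ccl2* reached 46.2 ± 2.51 TPM and ranked behind *Ccl8* (111 ± 30.3 TPM) and *Ccl6* (81.35 ± 9.44 TPM) and beside *Ccl9* (42.7 ± 4.78 TPM), whose libraries overlapped with those of *Ccl2*. *Ccl7* (32.45 TPM) and *Ccl12* (29.9 TPM) followed, then *Ccl3* (10.8 TPM), *Ccl4* (9.89 TPM) and *Ccr1* (6.49 TPM).

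The summed level of the 8 ligands was 94.3, 155 and 243 TPM in WT and 320, 358 and 415 TPM in *Gpr174-/Y* muscle, so that the groups did not overlap. TPM carries no TMM factor, and with total counts as the scale 50.7% of all genes were called higher. With TMM factors the sum of all 9 members was 67.7, 96.6 and 133 CPM in WT and 166, 174 and 191 CPM in *Gpr174-/Y* muscle. The makeup of this sum differed too. *Ccl2* made up 3.55%, 3.97% and 5.06% of the ligand TPM in the WT and 15.2%, 12.8% and 10.5% in the *Gpr174-/Y* libraries. *Ccl6* made up 43.3%, 31.5% and 25.3% in WT and 22.6%, 22.5% and 22.0% in *Gpr174-/Y* muscle. The mean share of *Ccl8* was 30.9% in WT and 30.1% in *Gpr174-/Y* muscle. The share of *Ccl6* was above that of *Ccl2* in every library.

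The ratio of 2 members within a library does not depend on the scaling. Of 10 ratios compared, 8 did not overlap between the groups (2-sided exact permutation test, p = 0.1 each, the smallest p that 3 against 3 allows, adjusted p = 0.125 over the 10), so that none could reach 0.05. *Ccl2* and *Ccl12* were about equal in WT muscle, with 0.96, 0.68 and 0.72 counts of *Ccl2* for each count of *Ccl12*, while the *Gpr174-/Y* libraries had 3.49, 2.49 and 1.73. The ratio of *Ccl8* to *Ccl2* was 4.24, 4.98 and 4.28 in WT and 1.04, 1.43 and 1.997 in *Gpr174-/Y* muscle. *Ccl8* and *Ccl12*, in contrast, had a ratio of 4.08, 3.37 and 3.08 in WT and 3.63, 3.55 and 3.46 in *Gpr174-/Y* muscle (log2 difference 0.03, exact permutation test, p = 0.8). The *Ccl2* to *Ccl7* ratio moved less than that of *Ccl2* to *Ccl12*, by 0.66 against 1.67 on the log2 scale.

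Ratios within the CCR1 arm differed as well. *Ccl6* had 2.16, 1.58 and 1.41 counts for each count of *Ccl9* in WT and 0.86, 0.93 and 0.89 in *Gpr174-/Y* muscle. There were 1.39, 1.55 and 1.48 counts of *Ccl3* for each count of *Ccr1* in WT and 0.45, 0.49 and 0.40 in *Gpr174-/Y* muscle, the largest of the 10 differences (-1.73 on the log2 scale). The ratio of *Ccl3* to *Ccl4* overlapped between the groups (log2 difference -0.42, exact permutation test, p = 0.4). All 10 differences had the same sign when the ratios were taken from TPM.

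**Figure D3:**
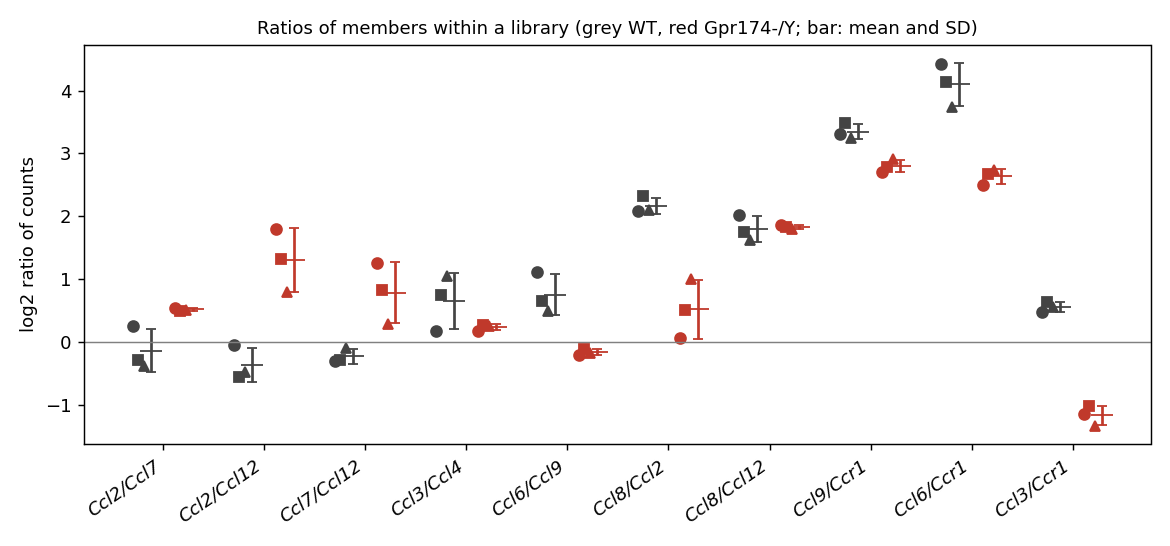
Log2 ratio of the counts of 2 members within each library, with WT in grey, *Gpr174-/Y* in red and bars for the mean and SD of 3 libraries. *Ccl8*/*Ccl12* and *Ccl3*/*Ccl4* overlap between the groups, and the other 8 ratios do not.

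Genes of macrophages differed between the groups in the same direction as the members. Of 16 macrophage identity genes 13 rose and none (0) fell (27% and 27.6% of all genes), with a median log2 fold change of 0.77. Their summed level was 1763 to 2781 CPM in WT and 4065 to 4159 CPM in *Gpr174-/Y* muscle. Like the members, this sum was lowest in WT replicate 1 and highest among WT libraries in replicate 3. Each member was therefore also expressed per 1000 counts of these 16 genes. On that scale *Ccl2* remained higher in all *Gpr174-/Y* libraries, with 0.88, 1.26 and 1.86 in WT and 4.18, 3.81 and 3.43 in *Gpr174-/Y* muscle. *Ccr1* did as well, with 0.92, 1.04 and 1.27 in WT and 2.01, 1.91 and 1.97 in *Gpr174-/Y* muscle, and so did *Ccl9* by a smaller margin (log2 difference 0.34). *Ccl6* went the other way, from 19.7, 18.3 and 17.0 in WT to 11.4, 12.2 and 13.1 in *Gpr174-/Y* muscle. *Ccl3* (log2 difference -0.85) and *Ccl4* (-0.43) were likewise lower in all *Gpr174-/Y* libraries. Most genes were lower on this scale: with it, edgeR gave a median log2 fold change of -0.91 over all genes tested. *Ccl6*, *Ccl3* and *Ccl4* thus fell less than the median gene. *Ccl7*, *Ccl8* and *Ccl12* overlapped between the groups, with log2 differences of 0.92, -0.07 and -0.09. The 6 ratios that did not overlap had p = 0.1, the smallest that the exact permutation test allows, and an adjusted p of 0.15 over the 9.

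With the summed macrophage counts as the scale for all genes, edgeR's quasi-likelihood test called *Ccl2* (log2 fold change 1.48), *Ccr1* (0.85) and *Ccl7* (0.72, adjusted p = 0.0406) higher, 3 of 9 members against 1.39% of all genes. *Ccl3* (-0.87) and *Ccl6* (-0.58) were called lower, 2 of 9 against 81.8% of all genes. *Ccl9* kept its sign but not its call (0.32, adjusted p = 0.114). *Ccl2* alone among the members then passed the 2-fold threshold.

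**Figure D4:**
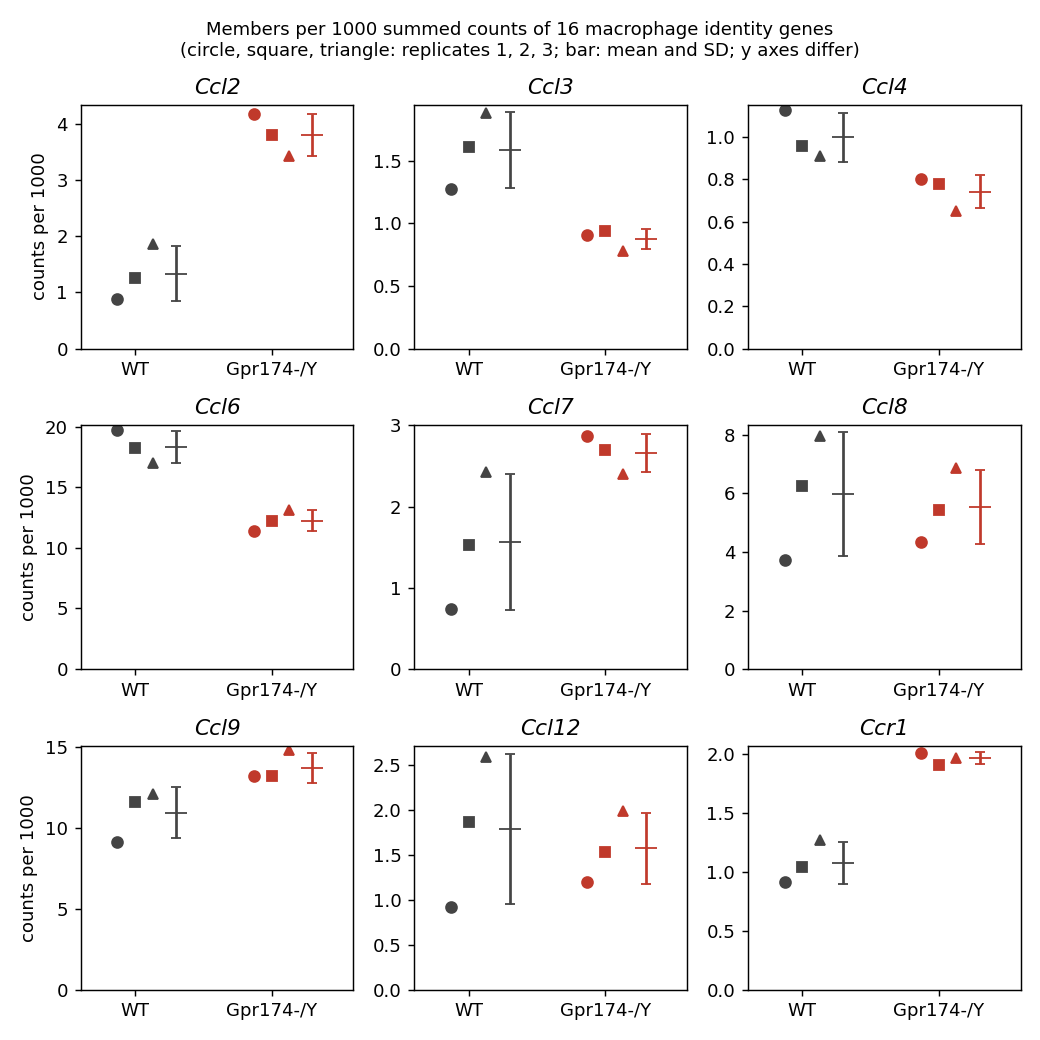
Counts of each member per 1000 summed counts of 16 macrophage identity genes in each library, with WT in grey, *Gpr174-/Y* in red and bars for the mean and SD of 3 libraries. *Ccl2*, *Ccl9* and *Ccr1* lie higher in every *Gpr174-/Y* library, *Ccl3*, *Ccl4* and *Ccl6* lower, and *Ccl7*, *Ccl8* and *Ccl12* overlap. The median log2 fold change of all genes tested on this scale is -0.91.

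Markers of other cell types also moved, where 27% of all genes tested rose and 27.6% fell. Of 12 monocyte genes 6 rose and 2 fell (summed level 1766 to 2906 CPM in WT and 4077 to 4131 CPM in *Gpr174-/Y* muscle). That sum was carried by *Fn1*, the fibronectin gene, which many other cells also express (1359 to 2532 CPM in WT and 3689 to 3773 CPM in *Gpr174-/Y* muscle), and the other 11 genes summed to 374 to 406.5 CPM in WT and 358 to 388 CPM in *Gpr174-/Y* muscle, which overlapped. *Ly6c2*, the defining marker of inflammatory monocytes, had 1.805, 3.87 and 7.98 CPM in WT and 3.49, 4.47 and 4.37 CPM in *Gpr174-/Y* muscle (adjusted p = 0.782, edgeR's quasi-likelihood test). Beside the 2 that fell, the 6 that rose included *Fn1*, *Chil3*, *Ccr2* and *F13a1*. The log2 fold change was 2.38 for *Chil3*, from 3, 5 and 6 counts in WT, 0.64 for *Ccr2* and 0.42 for *F13a1*. Of 12 neutrophil genes only 3 could be tested, 2 of which rose and 1 fell (21.2 to 28.2 and 32.45 to 35.7 CPM), and *Ly6g* had 0 counts in each library but *Gpr174-/Y* replicate 3, which had 1. The summed level of 22 genes of mature muscle fibres was 155400 to 219100 CPM in WT and 67910 to 76830 CPM in *Gpr174-/Y* muscle, with 19 lower and 1 higher. Of 10 fibroblast genes 5 rose and 4 fell, with sums of 17000 to 25370 CPM in WT and 33190 to 36480 CPM in *Gpr174-/Y* muscle. Of 12 genes of regenerating muscle 9 rose and none (0) fell, and these sums overlapped (6806 to 8917 and 8236 to 10100 CPM). Of 12 endothelial genes 1 rose and 11 fell (1294 to 1498 CPM in WT and 801 to 897 CPM in *Gpr174-/Y* muscle). Of 7 dendritic cell genes 1 rose and 5 fell, and their sum was higher in *Gpr174-/Y* muscle (68.0 to 78.2 CPM against 49.7 to 56.4 CPM), carried by *Itgax*, which rose (1.12). Of 5 tested mast cell genes none (0) rose and 4 fell (36.0 to 55.1 and 33.3 to 36.4 CPM). Of 9 tested T cell genes none (0) rose and 1 fell (30.0 to 36.75 and 33.3 to 37.5 CPM), and neither of the 2 tested B cell genes was called (1.69 to 2.12 and 2.05 to 2.44 CPM). The part of these differences in the levels of the members was not tested.

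Other chemokine receptors were examined next. *Ccr2*, the receptor of CCL2, CCL7 and CCL12, had 20.7, 22.4 and 24.3 CPM in WT and 32.8, 36.1 and 36.6 CPM in *Gpr174-/Y* muscle. The groups did not overlap and the difference was small in its error (log2 fold change 0.64, SE 0.08, adjusted p = 0.00128, edgeR's quasi-likelihood test). Relative to the macrophage identity genes it was -0.26 (adjusted p = 0.197).

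Of 16 tested chemokine receptors and scavengers other than *Ccr1*, 4 rose and 3 fell, beside 27% and 27.6% of all genes tested. Relative to the macrophage identity genes none (0) rose and 11 fell, where 1.39% of all genes rose and 81.8% fell. Besides *Ccr2*, those that rose included *Cx3cr1*, the fractalkine receptor of patrolling monocytes and many macrophages (log2 fold change 1.03, adjusted p = 0.00451), and *Cxcr4*, the receptor of CXCL12 (0.63, adjusted p = 0.000638). *Xcr1*, a marker of cross-presenting dendritic cells, fell (-0.73, adjusted p = 0.00679), as did *Ackr3*, a scavenging receptor of CXCL12 (-0.585, adjusted p = 0.001135), and *Cxcr2*, the neutrophil receptor (-0.57, adjusted p = 0.0193). The scavengers of CC chemokines did not pass the test: *Ackr1* had a log2 fold change of -0.01, *Ackr2* of -0.35 and *Ackr4* of -0.49. Nor did *Ccr7* (-0.01), *Ccr9* (-0.26), *Ccrl2* (0.02), *Cxcr3* (-0.16) or *Cxcr6* (-0.30), and *Ccr10* had fewer than 10 counts on average.

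Among 9 tested CC chemokines that are not members, none (0) was called higher (27% of all genes). Of these 9, 1, *Ccl11*, was called lower (27.6% of all genes), and the median log2 fold change was -0.47. The counts differ from those of the members, 5 of 9 and 0 of 9, but both lists were chosen by name with results of these data known. *Ccl5*, which attracts T cells and monocytes and lies beside *Ccl9*, had 7.65, 9.40 and 12.5 CPM in WT and 6.21, 6.88 and 7.675 CPM in *Gpr174-/Y* muscle (log2 fold change -0.51, adjusted p = 0.0519, edgeR's quasi-likelihood test). Of 6 fits with a library left out 1 called it, that without WT replicate 1 (adjusted p = 0.0118). The highest adjusted p of the 6 was 0.150. *Ccl21a*, a ligand of CCR7, ranged from 6.57 to 17.4 CPM in WT and from 5.07 to 11.5 CPM in *Gpr174-/Y* muscle (-0.57, adjusted p = 0.262), and the near-identical *Ccl21d*, with which it can share reads, had -0.59 (adjusted p = 0.178). The other 5 had log2 fold changes between -0.47 and -0.05: *Ccl27a* (-0.47), *Ccl22* (-0.22), *Ccl25* (-0.16), *Ccl24* (-0.14) and *Ccl28* (-0.05). *Ccl1*, *Ccl17*, *Ccl19* and *Ccl20* were too low to test.

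**Figure D5:**
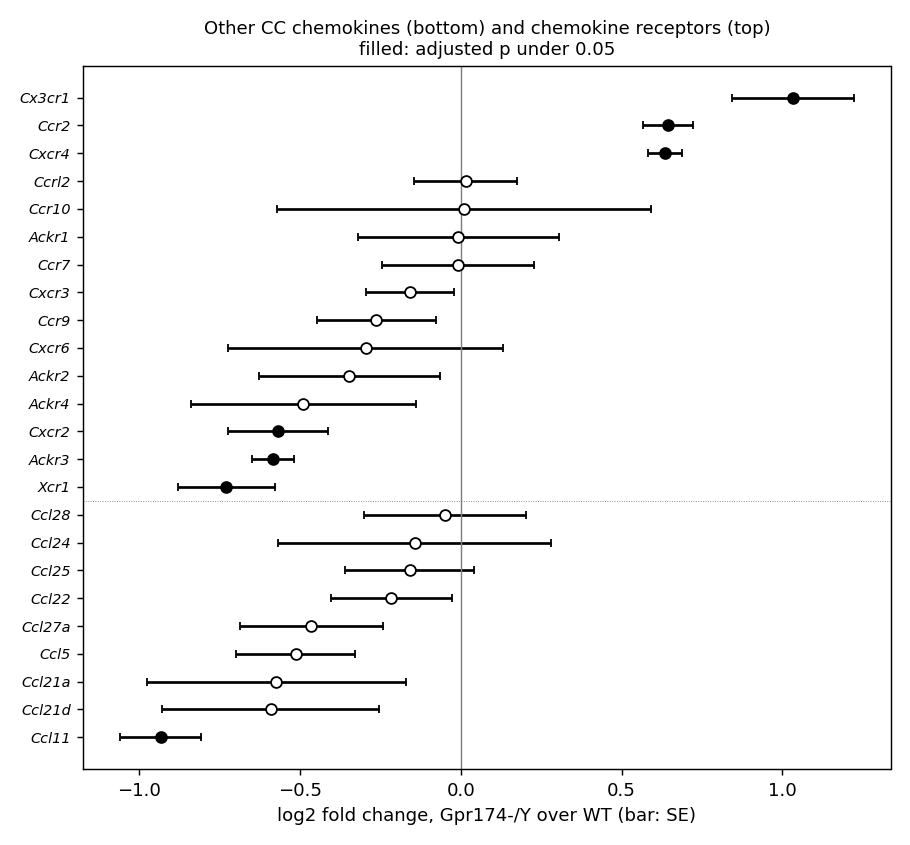
Log2 fold change (*Gpr174-/Y* over WT, bars for the SE) of tested chemokine receptors and scavengers (top) and of the tested CC chemokines that are not members (bottom), with filled points for an adjusted p under 0.05. *Cx3cr1*, *Ccr2* and *Cxcr4* lie to the right of 0 and filled, and of the 9 chemokines only *Ccl11* is filled, at -0.93.

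CC chemokine genes are switched on by tumour necrosis factor, interleukin-1, Toll-like receptors and NF-kappaB, and held back by inhibitors of these pathways. Of 38 tested genes of this list 26 rose and 4 fell (27% and 27.6% of all genes), with a median log2 fold change of 0.43. Relative to the macrophage identity genes 4 were higher and 21 lower (1.39% and 81.8% of all genes). Both inducers and brakes were among those that rose. *Il1rn*, the antagonist of the interleukin-1 receptor, had 0.68, 2.38 and 5.39 CPM in WT and 12.04, 15.45 and 17.0 CPM in *Gpr174-/Y* muscle (log2 fold change 2.365, adjusted p = 0.00648, edgeR's quasi-likelihood test). *Socs3*, a brake on cytokine signalling, had 10.3, 12.6 and 18.15 CPM in WT and 43.8, 44.0 and 44.9 CPM in *Gpr174-/Y* muscle (1.69, adjusted p = 0.00102). Both lists of values kept the groups well apart, with the same low WT replicate 1 as the members.

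The inducing cytokines themselves were scarce. *Il1b* had 0.75, 0.71 and 1.07 CPM in WT and 2.77, 1.84 and 1.86 CPM in *Gpr174-/Y* muscle (log2 fold change 1.34, adjusted p = 0.005605, edgeR's quasi-likelihood test). *Tnf* had 0.81, 0.54 and 1.24 CPM in WT and 1.82, 1.74 and 1.63 CPM in *Gpr174-/Y* muscle (0.99, adjusted p = 0.0189). *Il6* had 0, 0.12 and 0.28 CPM in WT and 0.72, 0.61 and 0.74 CPM in *Gpr174-/Y* muscle (2.27, SE 0.57, adjusted p = 0.0141). All 3 were higher in each *Gpr174-/Y* library than in any WT library. *Il1a*, the other interleukin-1 agonist, fell (-0.80, adjusted p = 0.0277), as did the NF-kappaB inhibitor *Nfkbib* (-0.29) and the adaptor *Traf6* (-0.23). Without WT replicate 2 or without *Gpr174-/Y* replicate 3 the number that rose was 14 or 16 of this list (18.2% and 23.1% of all genes). The number that fell dropped to 1 or 2 when WT replicate 1, WT replicate 2 or any of the *Gpr174-/Y* replicates was left out (19.3% to 24.2% of all genes). These falls also depended on the setting. With total counts as the scale, with or without mature fibre genes, 0 genes of the list were called lower (14% and 20.6% of all genes). In a test against 1.2-fold 0 were called lower and 11 higher (16% and 13.7% of all genes).

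Genes that act after a chemokine has bound its receptor, from G protein subunits to actin regulators, rose in larger part. Of 31 genes tested 25 rose and 1 fell (27% and 27.6% of all genes), with a median log2 fold change of 0.53. Relative to the macrophage identity genes 0 were higher and 13 lower (1.39% and 81.8% of all genes). The largest increases were those of *Rgs1*, which shortens signalling by G proteins (1.29, adjusted p = 0.0116, edgeR's quasi-likelihood test), *Pik3r5*, a subunit of phosphoinositide 3-kinase gamma (1.19, adjusted p = 0.00209), and *Fgr*, a Src family kinase of myeloid cells (1.10, adjusted p = 0.00681). The lowest values among called genes were those of *Gng5*, a G protein gamma subunit (-0.50), *Gnb2* (0.24) and *Gnb1* (0.36).

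Of 21 tested growth factors, their receptors and adhesion molecules of monocytes, 14 rose and 2 fell (27% and 27.6% of all genes), with a median of 0.60. Relative to the macrophage identity genes 1 was higher and 7 lower (1.39% and 81.8% of all genes). *Itgam*, the integrin chain CD11b, had 20.04, 27.9 and 39.1 CPM in WT and 79.4, 87.55 and 96.7 CPM in *Gpr174-/Y* muscle (log2 fold change 1.6, adjusted p = 0.0018, edgeR's quasi-likelihood test). Its partner *Itgb2* (1.11) and the cytokine receptor chain *Csf2rb* (1.13) rose too, and *Cd47* had the smallest increase (0.30). *Icam2* (-0.82) and *Pecam1* (-0.63), which are abundant on endothelium, fell.

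Of 16 tested enzymes and matrix molecules that cut or bind chemokines, 10 rose and 1 fell (27% and 27.6% of all genes), with a median of 0.76. Relative to the macrophage identity genes 3 were higher and 7 lower (1.39% and 81.8% of all genes). The metalloproteinases *Mmp12* and *Mmp9* had the largest increases among genes well above the detection limit. *Mmp12* had 4.85, 9.17 and 17.9 CPM in WT and 51.9, 68.4 and 92.4 CPM in *Gpr174-/Y* muscle (log2 fold change 2.72, adjusted p = 0.00259, edgeR's quasi-likelihood test). *Mmp9* had 2.55, 11.6 and 23.7 CPM in WT and 83.8, 80.6 and 77.45 CPM in *Gpr174-/Y* muscle (2.66, adjusted p = 0.00718). *Mmp8*, a collagenase of neutrophils, was called as well (2.85, adjusted p = 0.000888) from 3, 2 and 3 counts in the WT libraries. The smallest increases were those of *Mmp14* (0.47) and *Ext1* (0.71), and *Dpp4*, which clips the amino end of several chemokines, fell (-0.64, adjusted p = 0.005).

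The genes most like each member across the 6 libraries were taken as those with the smallest root mean square difference of centred log2 CPM, among 11385 genes with a mean of at least 100 counts. For *Ccl2* they were *R3hdml* (0.13), *Tnc* (0.14) and *Spp1* (0.15), and for *Ccl7* *P4ha3* (0.10), *Cdh3* (0.13) and *Cd300lf* (0.15). For *Ccr1* they were *Gpnmb* (0.05), *Dclk1* (0.06) and *Dio3* (0.07), and for *Ccl9* *Postn* (0.06), *C3ar1* (0.07) and *Ccbe1* (0.07). *Ccl8* and *Ccl12*, whose WT replicate 3 reached the *Gpr174-/Y* range, had other neighbours. Those of *Ccl8* were *Fcgr1* (0.12), *Slfn8* (0.12) and *Serpina3g* (0.13), and those of *Ccl12* *Oas3* (0.09), *Ms4a4c* (0.14) and *Oas1a* (0.16). *Ccl6*, with its small differences, had *Zfp81* (0.03) and *Zfp52* (0.03) among its nearest genes. The points are the same 6 libraries for each pair, so likeness here includes the difference between the groups, and is given as a description.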

How the data were processed

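RNA-seq libraries from 3 WT and 3 *Gpr174-/Y* ischemic gastrocnemius muscles were analysed. The authors deposited expected counts per RefSeq transcript, that is estimated reads that need not be whole, with FPKM and TPM (both scaled for transcript length and library size) for 58843 transcripts. Submitters' processing notes name HISAT2 2.0.4, Bowtie2 2.2.5, RSEM 1.2.12 and GRCm39, without their roles, and the use of strand is not given in the sources used here. The methods give sequencing on a BGISEQ machine, the labels an Illumina library kit. The authors' group means were not used.

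Each column was assigned to a library from its label, with 0 columns left over. Expected counts were summed per Entrez gene and rounded, giving 18089 genes, and 99.7% received a symbol from RefSeq. Genes were compared with edgeR 4.0.16 (TMM scaling, its low-count filter, and its robust quasi-likelihood fit) under R 4.3.3, over 14395 genes with Benjamini-Hochberg adjustment, with the study's thresholds (adjusted p 0.05, log2 fold change 1 in size). The SE was computed from the F statistic. The common dispersion was 0.00967. The test was tested on simulated data with known fold changes. Ratios were compared with an exact 2-sided permutation test in Python 3.11.15. The members, lists and alternatives were chosen with earlier results of these data known.

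Genes named are the members, *Gpr174*, the other CC chemokines and receptors with a mean of at least 10 counts, *Tnf*, *Il1b* and *Il6*, the 3 largest and 3 lowest log2 fold changes among called genes of each other list, and the 3 genes nearest in pattern to members with a mean of at least 100 counts. *Ly6c2*, *Chil3*, *F13a1*, *Fn1*, *Itgax*, the eosinophil markers and the markers at or near 0 were named after their values were seen. *Ccl21b*, *Ccl26*, *Ifnb1*, *Mmp1a*, *Ighm* and *Epx*, of the lists, were not analysed here, and some genes that these rules name are not reported here.

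The 20 alternatives were DESeq2 1.42.0 (size factors alone or with the Wald test), scaling by upper quartiles or total counts (with and without mature fibre genes), scaling to macrophage identity genes, limma 3.58.1 (voom, and log2 FPKM with 1 or 0.1 added, keeping genes that reached an FPKM of 1 in 3 libraries), testing against 1.2-fold, dropping the filter or asking for 10 counts in each library, a replicate block, replicates 1 and 3 alone, and leaving out each library.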

Additional observations from a re-analysis of the deposited data

How the results depend on the processing

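The number of members called higher, 5 with the settings of the report, was between 4 and 6 with the other scalings, filters, tests and units, except relative to macrophage identity genes (3 higher, 2 lower, 1 over 2-fold) and when just replicates 1 and 3 were used (0, and 0 over 2-fold, with 3 members and 5026 genes at an unadjusted p under 0.05). Leaving out single libraries gave 3 to 8. Total counts shifted the median of all genes to 0.28 and called 50.7% of them higher, beside 6 of 9 members. The macrophage scale shifted the median to -0.91. Signs reversed there for *Ccl4* (-0.42), *Ccl6* (-0.58), *Ccl8* (-0.12), *Ccl12* (-0.22) and *Ccr2* (-0.26). The log2 fold change of *Ccl3*, -0.03, was above 0 with total counts (0.23), total counts without fibre genes (0.084), voom (0.036), log2(FPKM + 1) (0.25) and log2(FPKM + 0.1) (0.32), and lay between -0.28 and 0.32 with each library left out. Same-numbered libraries did not deviate together (correlations 0.02, -0.03 and -0.01), and the labels do not say whether the numbers pair the samples. The replicate block gave 6 members higher (23% of all genes), without *Ccl4* (adjusted p = 0.0927) and with *Ccl6* (adjusted p = 0.0184) and *Ccl8* (adjusted p = 0.0392), by edgeR's quasi-likelihood test, and a log2 fold change of 0.0078 for *Ccl3*. Except where a setting by its construction drops libraries, the cause of these changes was not tested. Of the counts over the other lists, 195 moved by at most 1.5 times and 45 by more. The lowest members had 21 to 36 counts in WT replicate 1, but low counts and a large SE did not always go together. The SE was largest for *Ccl12* (0.45), *Ccl7* (0.43) and *Ccl8* (0.39), and smallest for *Ccl6* (0.12) and *Ccl4* (0.15).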
